A study of Mus musculus with 29 samples.

Results

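The oldest trunk somites of the mouse embryo at E9.0 were set against the 4 somites just younger than them. SOMD holds cells of somite 10 onward, with somite 13, 14, 15 or 16 named as the last in the labels of SOMD1, SOMD2, SOMD3 and SOMD4, and SOMC holds cells of somites 6 to 9. The samples were chosen by their titles, SOMD1 to SOMD4 against SOMC1 to SOMC4, and make 8 of the 29 samples in the series. SOMB (somites 2 to 5) and SOMA (presomitic mesoderm with the most recent somite) were used for the spread between samples and for 1 further comparison along the trunk. Every one of these groups is E9.0 paraxial mesoderm of C57BL/6 embryos that carry Dll1-YFP, dissociated, and sorted by flow cytometry for YFP+ cells of the Dll1 lineage, so the groups share the lineage mark and the sort. The sort keeps cells by lineage and not by position within the somite, so each sample mixes all compartments, and the labels do not say how many embryos went into a sample or whether samples came from separate embryos. P-values below therefore measure the spread between these samples, which may be technical.

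Somites form at the tail end of the embryo and are displaced toward the head as new ones are added, so a somite with a higher number here is both older and further toward the head. As a somite matures, its ventral part becomes the sclerotome, which forms vertebrae and ribs, and its dorsal part becomes the dermomyotome, which gives the myotome, the earliest skeletal muscle. Position along the trunk is encoded by Hox genes, whose higher paralogue groups are used further toward the tail. A difference between SOMD and SOMC can belong to age or to position, and these cannot be told apart in this design.

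The 8 count files hold between 11541131 and 27838317 reads in genes. SOMC1 and SOMC4 differed from each other by a biological coefficient of variation of 0.0235, and SOMD1 and SOMD4 by 0.0248, against 0.112 to 0.136 for the other pairs within a group. Each of these nearly identical pairs was summed and counted as 1 sample, named 1+4, which leaves 3 SOMD and 3 SOMC samples. SOMD1 and SOMD4 carry different last somites in their labels (13 and 16) although their counts are nearly identical, so the last somite of each SOMD sample is uncertain and was not used. Markers of paraxial mesoderm were present in each of the 6 samples: the sclerotome factor Pax1 ran from 55.2 to 85.7 CPM (counts scaled to a common library size), the dermomyotome factor Pax3 from 25.5 to 59.8 CPM, Tcf15 from 22.5 to 51.5 CPM and Foxc2 from 52.2 to 87.7 CPM. SOMD and SOMC samples that share a number deviated together from their group means (r = 0.610, 0.549 and 0.560 over genes, against -0.325 to -0.261 for other combinations). Deviations from a mean cancel out over the samples of a group, so the negative values follow from the positive ones. Since same-number samples deviated together, a fit with the replicate number as a block is given beside each result whose call it changes. It is called the paired fit below. The share of reads in no gene was 12.2 to 12.5% in the libraries numbered 1 and 4 and 9.82 to 10.7% in those numbered 2 and 3, in SOMD and SOMC alike.

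Of 13711 genes tested, 20 rose in SOMD (0.146%) and 31 fell (0.226%) at an adjusted p under 0.05 in edgeR's quasi-likelihood test. The median log2 fold change over all genes tested was 0.00. All 20 that rose and 24 of the 31 that fell changed at least 2-fold, and for each of the 51 genes the SOMD samples lay entirely above or below the SOMC samples. Such a separation was found for 796 genes upward (5.81%) and 666 downward (4.86%). In the paired fit 593 genes rose (4.32%) and 515 fell (3.76%), among them all 51, each in the same direction. The paired calls depended on the samples as well. Of these 1108 calls 319, 806 and 592 were also called when number 1, 2 or 3 was left out. The unpaired counts depended on each sample: without SOMD sample 1+4, 2 or 3 they were 1, 36 and 14 genes higher and 1, 35 and 13 lower, and without SOMC sample 1+4, 2 or 3 they were 7, 8 and 2 higher and 13, 22 and 13 lower. Barx1 and Krt19 kept their calls when any 1 sample was left out. Each of the other called genes described below lost its call in at least 1 such fit. The direction of these genes could not turn in such fits, since their groups do not overlap.

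The largest rise among the called genes was in Barx1 (chr13:48662998-48666507, GRCm38), a homeobox transcription factor known from jaw and stomach mesenchyme. It had 33.0, 20.6 and 14.5 CPM in SOMD samples 1+4, 2 and 3, against 0.456, 1.14 and 0.688 CPM in the SOMC samples of the same numbers. Its log2 fold change was 5.04 ± 0.39 (SE), with an adjusted p of 9.51e-05 in edgeR. The lowest SOMD sample for Barx1 was thus far above the highest SOMC sample. In a sorted bulk sample, more cells that express a gene and more RNA per cell cannot be told apart, which holds for every gene below.

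Dach2, a transcriptional cofactor that works with Eya proteins, had 10.3, 7.30 and 6.83 CPM in SOMD, against 2.71, 1.26 and 1.88 CPM in SOMC (log2 fold change 2.02 ± 0.32, adjusted p = 0.0205, edgeR). Bmpr1b, a type I receptor for bone morphogenetic proteins that is known from prechondrogenic cells, had 19.8, 15.3 and 14.3 CPM in SOMD and 7.99, 6.87 and 6.25 CPM in SOMC (1.23 ± 0.17, adjusted p = 0.00894, edgeR). Angptl1, a secreted angiopoietin-like protein, varied little within groups, at 8.14, 7.90 and 8.56 CPM in SOMD and 2.61, 2.14 and 2.50 CPM in SOMC (1.75 ± 0.27, adjusted p = 0.0188, edgeR). In these 3 genes the lowest SOMD sample lay well clear of the highest SOMC sample, and the rule that named them required no overlap. Asb4, a substrate adaptor of a ubiquitin ligase, was higher by 1.18 ± 0.23 on the log2 scale (adjusted p = 0.0417, edgeR), with 268 CPM in SOMD sample 1+4 and 153 and 177 CPM in the other SOMD samples, against 86.3, 94.0 and 83.5 CPM in SOMC. Hoxa4, Ttn and Tnnt2 are described with their groups below.

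Pitx1 (chr13:55825051-55836192), the homeobox factor that gives the hindlimb its identity, had the largest fall among genes with at least 5 CPM on average. It measured 2.25, 2.75 and 1.58 CPM in SOMD samples 1+4, 2 and 3, against 70.2, 21.4 and 21.2 CPM in SOMC (log2 fold change -4.13 ± 0.50, adjusted p = 0.00556, edgeR). The groups were far apart although SOMC sample 1+4 was high against the other SOMC samples. The annotation places another gene on the opposite strand at Pitx1, and the library kit does not keep the strand, so their reads cannot be told apart. The same holds for Ttn, Dach2, Angptl1 and Gata3. Among other genes of this report it also holds for Hoxa6, Hoxa7, Hoxb5, Hoxb6, Hoxd3, Lhx2, Myh6, Pax1, Pax9, Scx, Gli1 and Lin28a.

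Fgf18, a fibroblast growth factor ligand known from cartilage and bone, had 1.39, 2.32 and 1.88 CPM in SOMD and 5.20, 10.8 and 10.6 CPM in SOMC (-2.31 ± 0.31, adjusted p = 0.00894, edgeR). 2610528A11Rik, given here only by its identifier, had 0.728, 1.72 and 1.20 CPM in SOMD and 11.8, 7.88 and 16.4 CPM in SOMC (-3.51 ± 0.45, adjusted p = 0.00894, edgeR). Gpr50, an orphan receptor related to melatonin receptors, had 17.1, 15.1 and 11.3 CPM in SOMD and 50.2, 32.9 and 29.9 CPM in SOMC (-1.37 ± 0.21, adjusted p = 0.0177, edgeR). None of these 3 genes had a SOMD sample that reached the lowest SOMC sample, as the rule that named them required. Naaa, a lysosomal amidase of lipid mediators, averaged 9.47 ± 1.04 CPM in SOMD and 21.8 ± 1.15 CPM in SOMC (SD, n = 3 each; -1.21 ± 0.18, adjusted p = 0.0154, edgeR). Vwa2, a basement membrane protein, averaged 2.98 ± 0.936 CPM in SOMD and 8.46 ± 2.12 CPM in SOMC (-1.54 ± 0.28, adjusted p = 0.0339, edgeR). Mfap3l averaged 3.45 ± 0.461 CPM in SOMD and 7.87 ± 0.372 CPM in SOMC (-1.18 ± 0.18, adjusted p = 0.0177, edgeR).

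Krt19, a keratin of simple epithelia, varied little within groups, at 6.03, 7.90 and 6.46 CPM in SOMD and 18.3, 18.1 and 15.2 CPM in SOMC (-1.36 ± 0.14, adjusted p = 0.00146, edgeR). The summed level of 12 markers of epithelium and surface ectoderm was 79.1 to 150.1 CPM over the SOMD samples and 165 to 192 CPM over the SOMC samples. Of its 10 tested members, 4 fell in the paired fit (Krt8, Krt18, Grhl3 and Esrp1) and none rose; none passed in the unpaired fit. The epithelial adhesion genes Epcam and Cdh1 stayed under 3 CPM in every sample and passed in neither fit. Whether epithelial cells were present, and any part of theirs in the fall of Krt19, was not tested.

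**Figure D1:**
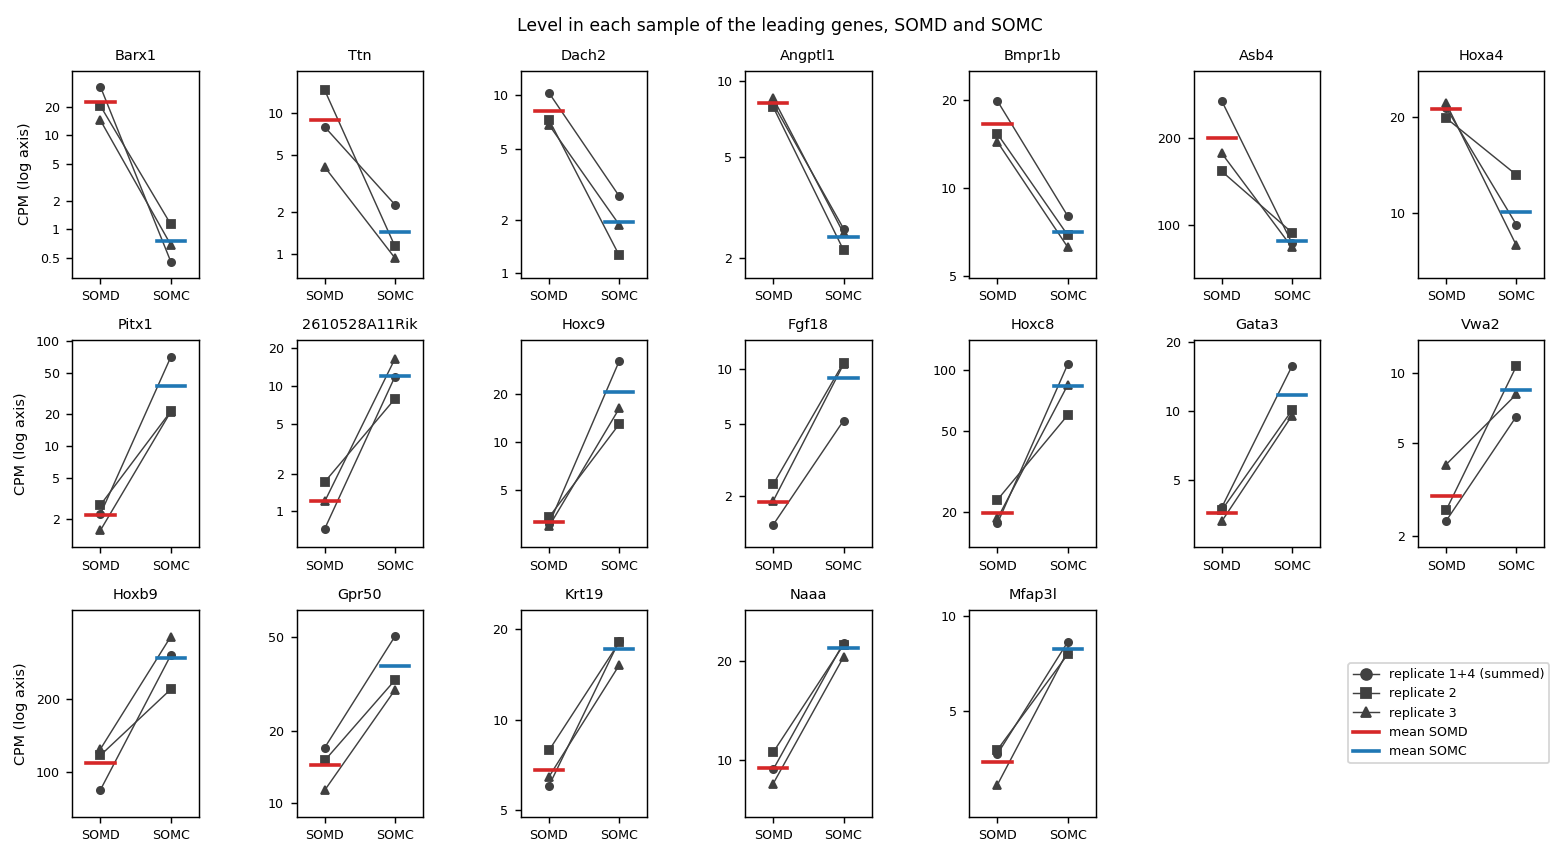
Level of each leading gene in CPM (log axis) in SOMD (left) and SOMC (right). Symbols are samples, lines join samples of the same number, and bars are group means (n = 3 each). In every panel the 3 SOMD samples lie on 1 side of the 3 SOMC samples, which the rule that chose the genes required. Barx1 lies between 14.5 and 33.0 CPM in SOMD and at or under 1.14 CPM in SOMC.

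Among the 51 called genes 21 averaged under 5 CPM, and the following of them were chosen after their values were seen. Stk32a, a kinase of little known function, had 4.16, 3.86 and 3.53 CPM in SOMD and 0.704, 0.694 and 0.625 CPM in SOMC (2.50 ± 0.44, adjusted p = 0.0306, edgeR). Lamc3, a laminin subunit of basement membranes, had 7.71, 5.41 and 3.45 CPM in SOMD and 1.78, 0.883 and 1.06 CPM in SOMC (2.10 ± 0.37, adjusted p = 0.0306, edgeR). Sfrp5, a secreted Wnt antagonist, had 2.02, 2.75 and 1.95 CPM in SOMD and 0.559, 0.504 and 0.750 CPM in SOMC (1.88 ± 0.34, adjusted p = 0.0334, edgeR). These 3 showed no overlap between the groups at low levels, as did all 51 called genes. Ibsp, a bone matrix protein, had 1.07, 0.773 and 0.525 CPM in SOMD and 3.85, 2.33 and 2.88 CPM in SOMC (-1.86 ± 0.31, adjusted p = 0.0248, edgeR). The death receptor gene Fas fell as well, with 1.32, 0.773 and 0.826 CPM in SOMD and 4.22, 2.59 and 3.38 CPM in SOMC (-1.73 ± 0.31, adjusted p = 0.0327, edgeR).

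Hox genes are given by paralogue group. Of 12 tested genes of groups 1 to 4, 1 rose and none fell, and in the paired fit 4 rose and none fell. Of 8 genes of groups 5 to 7, 1 fell, and in the paired fit 2 rose and 5 fell. Of 16 tested genes of groups 8 to 13, 3 fell, and in the paired fit 2 rose and 6 fell. The median log2 fold changes of these lists were 0.13, -0.48 and 0.07, against 0.00 over all genes. Over all genes 0.146% rose and 0.226% fell without pairing, and 4.32% rose and 3.76% fell with it. These shares stand beside the counts of every list in this report.

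Hoxa4 (chr6:52189671-52191753) was the called member of the low groups, with 21.4, 19.8 and 22.1 CPM in SOMD and 9.21, 13.2 and 7.94 CPM in SOMC (1.07 ± 0.17, adjusted p = 0.0193, edgeR). Its annotation overlaps 4 other genes, 2 of them on the opposite strand, so part of these reads cannot be assigned with certainty. Hoxb4 rose in the paired fit alone, with means of 49.5 ± 8.54 CPM in SOMD and 37.7 ± 2.90 CPM in SOMC (0.41 ± 0.07, adjusted p = 0.0042, edgeR). Hoxa2 and Hoxd3 also rose in that fit, by 0.33 ± 0.07 and 0.28 ± 0.08. The group 1 genes Hoxb1 and Hoxd1 passed in neither fit, with log2 fold changes of 0.12 ± 0.22 and -0.34 ± 0.22.

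In groups 5 to 7, Hoxb5 and Hoxc5 rose and Hoxa6, Hoxb6, Hoxc6, Hoxa7 and Hoxb7 fell, all in the paired fit and, except for Hoxb7, in that fit alone. Hoxb7 had 18.1, 16.0 and 17.3 CPM in SOMD and 28.2, 22.8 and 29.8 CPM in SOMC (-0.65 ± 0.11, adjusted p = 0.0264, edgeR). Hoxb5 averaged 30.1 ± 3.47 CPM in SOMD and 20.9 ± 1.59 CPM in SOMC (paired 0.55 ± 0.09, adjusted p = 0.00231, edgeR). Within the Hoxb cluster the direction thus turned between Hoxb5, which rose, and Hoxb6, Hoxb7, Hoxb8 and Hoxb9, which fell, with Hoxb6 and Hoxb8 called in the paired fit alone. Hoxc6 had 31.3, 25.1 and 26.7 CPM in SOMD and 57.1, 37.1 and 43.6 CPM in SOMC, with an adjusted p of 0.0933 without and 0.00113 with pairing in edgeR. The annotated Hoxc5 gene spans Hoxc6, Hoxc8 and Hoxc9 and overlaps part of Hoxc10, so its count can hold reads of their transcripts.

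In groups 8 to 13 Hoxc8, Hoxc9 and Hoxb9 fell without pairing, and Hoxb8, Hoxc10 and Hoxa13 fell in the paired fit alone. Hoxc9 (chr15:102976439-102985099) had 3.02, 3.35 and 2.93 CPM in SOMD and 32.5, 13.0 and 16.3 CPM in SOMC (-2.77 ± 0.39, adjusted p = 0.0104, edgeR). Its neighbour Hoxc8 (chr15:102990607-102994111) had 17.7, 23.1 and 18.7 CPM in SOMD and 107, 60.2 and 84.6 CPM in SOMC (-2.10 ± 0.28, adjusted p = 0.00894, edgeR). Hoxb9 (chr11:96271457-96276595) had 84.7, 117 and 125 CPM in SOMD and 302, 219 and 360.0 CPM in SOMC (-1.44 ± 0.25, adjusted p = 0.0264, edgeR). In all 3 the highest SOMD sample stayed under the lowest SOMC sample, as the rule that named them required. Hoxb8 averaged 56.0 ± 5.73 CPM in SOMD and 91.3 ± 13.3 CPM in SOMC (-0.70 ± 0.15, adjusted p = 0.074 without pairing and 8.61e-06 with it, edgeR). Hoxc10 had 2 counts over all SOMD samples and 1041 over the SOMC samples, a ratio of 0.00223 (95% counting interval 0.00027 to 0.00809, which covers counting error only). Most of the Hoxc10 signal in SOMC came from sample 1+4, at 20.9 CPM, against 1.70 and 0.25 CPM in samples 2 and 3.

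Among the Hoxd genes of the same groups 2 rose in the paired fit alone and none fell in either fit. Hoxd9 averaged 52.2 ± 27.3 CPM in SOMD and 27.3 ± 8.44 CPM in SOMC, and rose in the paired fit alone (0.92 ± 0.18, adjusted p = 0.00653, edgeR). Hoxd10 had 27.3, 3.52 and 9.31 CPM in SOMD and 8.39, 0.315 and 0.563 CPM in SOMC, which overlap, while each SOMD sample was above the SOMC sample of its number (2.06 ± 0.40, adjusted p = 0.00611, paired fit of edgeR). Samples 1+4 were the highest of their group for Hoxd10. Hoxa9 passed in neither fit, with 40.1, 13.6 and 22.8 CPM in SOMD and 45.6, 19.3 and 23.8 CPM in SOMC. Hoxb13, Hoxc12 and Hoxc13 had no counts in any SOMD or SOMC sample, and Hoxa13 had 1 count in SOMD and 33 in SOMC.

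**Figure D2:**
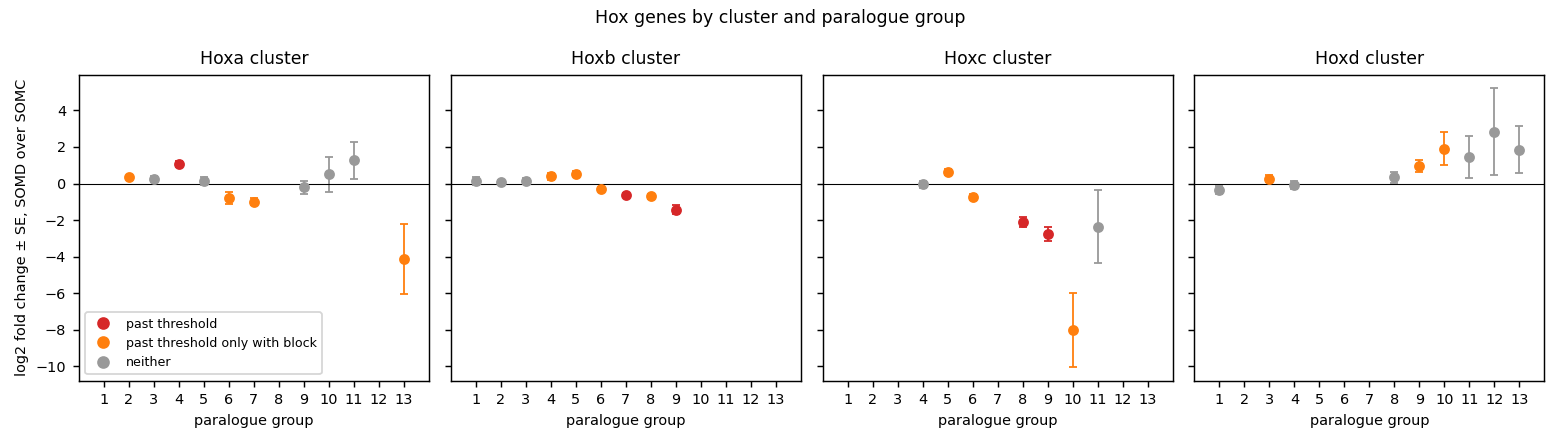
Log2 fold change of SOMD over SOMC (points, with SE bars, unpaired fit, n = 3 each) of the Hox genes reported here by paralogue group, 1 panel per cluster. Colour gives the call; Hoxc8 (-2.10), Hoxc9 (-2.77), Hoxb9 (-1.44) and Hoxb7 (-0.65) are called lower and Hoxa4 (1.07) higher. Fitted values of Hoxc10, Hoxc11, Hoxa13 and Hoxd12 rest on 3 counts or fewer in 1 of the groups and depend on the prior count.

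Among other regional factors, a list of 11 genes of occipital and cranial mesoderm had 1 member that rose (Barx1) and none that fell, with a median log2 fold change of 0.97. In the paired fit 7 rose and none fell. Barx1, Lhx2, Tbx15, Msc, Tbx1 and Prrx1 were among them. Tbx15, a T-box factor of head and limb mesenchyme, had 18.9, 1.12 and 2.93 CPM in SOMD and 1.14, 0 and 0.125 CPM in SOMC (4.13 ± 0.24, adjusted p = 1.68e-06, paired fit of edgeR; 0.332 without pairing). Lhx2, a LIM homeobox factor, had 54.9, 10.6 and 18.2 CPM in SOMD and 9.38, 3.09 and 2.56 CPM in SOMC (2.46 ± 0.17, adjusted p = 4.27e-06, paired; 0.394 without pairing, edgeR). For both genes samples 1+4 were the highest of each group. Every SOMD sample exceeded its SOMC sample of the same number, which is no separate support for the paired calls. Prrx1, a homeobox factor of limb and craniofacial mesenchyme, averaged 212 ± 59.1 CPM in SOMD and 137 ± 8.32 CPM in SOMC (paired 0.61 ± 0.11, adjusted p = 0.00369, edgeR). Tcf21, Alx1 and Prrx2 passed in neither fit.

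Genes known from limb and lateral plate mesenchyme follow; those of this paragraph that are in no list were chosen after their values were seen. Lhx9, a LIM homeobox factor, had 81.1, 9.36 and 29.8 CPM in SOMD and 4.85, 1.07 and 1.44 CPM in SOMC (4.02 ± 0.15, adjusted p = 2.04e-08, paired fit of edgeR; 0.0589 without pairing). Lmx1b, the dorsal limb factor, averaged 16.1 ± 9.34 CPM in SOMD and 4.99 ± 0.706 CPM in SOMC (paired 1.70 ± 0.21, adjusted p = 0.000307, edgeR). Hgf, the ligand that draws muscle precursors into the limb, averaged 16.5 ± 5.61 CPM in SOMD and 6.68 ± 0.871 CPM in SOMC (paired 1.31 ± 0.18, adjusted p = 0.000714, edgeR). These 3 were higher in SOMD in each of the 3 numbered pairs, which adds no support, since they were chosen after their values were seen. Of 10 tested cardiac and lateral plate factors, none passed without pairing, and with pairing 3 rose (Gata4, Tbx5, Isl1) and 2 fell (Hand1, Hand2). Tbx5, the forelimb factor, averaged 46.7 ± 5.53 CPM in SOMD and 27.6 ± 10.5 CPM in SOMC (paired 0.89 ± 0.24, adjusted p = 0.0383, edgeR), which runs opposite to the hindlimb factor Pitx1. Hand1 had 29.1, 28.1 and 21.8 CPM in SOMD and 85.1, 52.0 and 54.0 CPM in SOMC (paired -1.30 ± 0.13, adjusted p = 7.49e-05; 0.0583 without pairing, edgeR).

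Of 7 tested factors of intermediate mesoderm, the tissue that forms the kidney, 1 fell (Gata3), and in the paired fit 5 fell and none rose; the median log2 fold change was -0.94. Gata3, needed for the nephric duct, had 3.80, 3.69 and 3.30 CPM in SOMD and 15.7, 10.1 and 9.56 CPM in SOMC (-1.72 ± 0.29, adjusted p = 0.0248, edgeR). Pax8 had 1.66, 5.15 and 1.58 CPM in SOMD and 7.56, 6.56 and 11.3 CPM in SOMC (paired -1.77 ± 0.31, adjusted p = 0.00341; 0.237 without pairing, edgeR). Pax2 had 2.34, 7.47 and 3.38 CPM in SOMD and 12.2, 8.64 and 13.6 CPM in SOMC (paired -1.63 ± 0.29, adjusted p = 0.00351; 0.494 without pairing, edgeR). SOMD sample 2 lay closest to SOMC for both Pax genes. Without replicate number 1 in the paired fit, 1 member of this list was called in place of 5, and without number 2 there were 6. Wt1 and Osr1 passed in neither fit.

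Muscle genes were ordered by their place in the program. The myogenic regulators that start the program, Myf5 and Pax3, did not differ beyond their spread: Myf5 had 5.84, 6.78 and 5.55 CPM in SOMD and 7.10, 6.62 and 4.19 CPM in SOMC (0.00 ± 0.37, adjusted p = 1, edgeR). Myog, the regulator that drives terminal differentiation of myoblasts, had 12.7, 7.55 and 5.25 CPM in SOMD and 3.64, 0.820 and 0.25 CPM in SOMC. Its log2 fold change was 2.27 ± 0.63 with an adjusted p of 0.217, and 2.39 ± 0.30 with an adjusted p of 0.00068 in the paired fit of edgeR. Every SOMD sample was above every SOMC sample for Myog, samples 1+4 were the highest of their groups, and of the 6 unpaired fits that leave out 1 sample only the one without SOMC sample 1+4 called Myog (log2 fold change 4.0, adjusted p = 0.0399, against 1.85 to 2.52 and adjusted p from 0.228 to 0.83 in the other 5, edgeR). Mef2c, a cofactor of these regulators, also rose in the paired fit (0.58 ± 0.12, adjusted p = 0.00798), while Myf6 (0.39 ± 0.32, adjusted p = 0.574) passed in neither fit of edgeR. Myod1 was under the filter on low counts, at 0.205 CPM or less in every SOMD and 0.252 CPM or less in every SOMC sample.

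The 120 bases before the RefSeq transcription start (GRCm38.p6) are given for 4 muscle genes whose values follow, since muscle regulators bind E-boxes (CANNTG) and serum response factor binds CArG boxes (CC, then 6 bases that are A or T, then GG); matches on either strand are in capitals, and these motifs do not overlap each other here.
Myog, chr1:134289884-134290003, plus strand: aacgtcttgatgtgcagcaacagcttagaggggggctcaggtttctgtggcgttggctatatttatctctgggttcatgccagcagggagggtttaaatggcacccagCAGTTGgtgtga
Actc1, chr2:114052876-114052995, minus strand: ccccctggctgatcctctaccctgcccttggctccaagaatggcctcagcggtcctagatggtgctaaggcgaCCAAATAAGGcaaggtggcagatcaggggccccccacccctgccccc
Ttn, chr2:76982548-76982667, minus strand: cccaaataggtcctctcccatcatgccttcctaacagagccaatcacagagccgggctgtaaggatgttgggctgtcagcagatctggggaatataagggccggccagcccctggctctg
Myh3, chr11:67078180-67078299, plus strand: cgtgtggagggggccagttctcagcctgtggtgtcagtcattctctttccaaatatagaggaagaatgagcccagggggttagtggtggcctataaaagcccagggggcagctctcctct
Myog holds 1 E-box and Actc1 1 CArG box, and neither motif occurs in these letters at Ttn or Myh3. An E-box occurs in 40.2% and a CArG box in 0.749% of the 32851 windows of this length in the RefSeq table. Of the 15 genes of the myogenic and sarcomere lists that rose in the paired fit, 7 hold an E-box and 3 a CArG box at any of their listed starts, which describes the letters and not binding. The shares above count single windows, while a gene with several starts has several windows, so these counts cannot be set against those shares.

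Of 28 tested sarcomere genes 2 rose (Ttn and Tnnt2) and 1 fell (Acta2), with a median log2 fold change of 0.90, and 13 rose and 3 fell in the paired fit. The summed level of the 34 listed genes ran from 492 to 682 CPM in SOMD and from 597 to 786 CPM in SOMC. These ranges overlap, and the sum was not higher in SOMD. Ttn, the giant spring protein of the sarcomere, had 7.93, 14.4 and 4.13 CPM in SOMD and 2.24, 1.14 and 0.938 CPM in SOMC (2.51 ± 0.45, adjusted p = 0.0327, edgeR). Tnnt2, the cardiac troponin T that early skeletal muscle also uses, had 5.98, 14.8 and 2.93 CPM in SOMD and 1.37, 1.58 and 1.0 CPM in SOMC (2.55 ± 0.47, adjusted p = 0.0344, edgeR). SOMD sample 2 was the highest for both. Acta1, the skeletal muscle actin, had 5.89, 2.58 and 1.73 CPM in SOMD and 1.99, 0.757 and 0.438 CPM in SOMC (paired 1.66 ± 0.20, adjusted p = 0.000272; 0.304 without pairing, edgeR). Actc1, the actin of heart and early skeletal muscle, had 31.1, 40.4 and 13.4 CPM in SOMD and 20.4, 14.8 and 9.13 CPM in SOMC (paired 0.86 ± 0.15, adjusted p = 0.00263; 0.443 without pairing, edgeR). Myh3, the embryonic skeletal myosin, had 11.4, 1.29 and 0.751 CPM in SOMD and 1.1, 0 and 0.25 CPM in SOMC (paired 3.31 ± 0.35, adjusted p = 9.83e-05; 0.28 without pairing, edgeR). For both actins and Myh3 the groups overlapped, while each numbered pair had the higher value in SOMD, which is no separate support for the paired calls.

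Acta2, the smooth muscle actin, went the other way, with 39.7, 35.3 and 24.5 CPM in SOMD and 89.7, 60.6 and 57.0 CPM in SOMC (-1.06 ± 0.18, adjusted p = 0.0264, edgeR). The paired fit also called Tpm1, a tropomyosin of muscle and other cells (-0.42 ± 0.10), and Mybpc1, the slow skeletal myosin-binding protein (-1.67 ± 0.27), lower. Mybpc1 had 2.66, 3.35 and 1.95 CPM in SOMD and 13.4, 4.67 and 4.69 CPM in SOMC. The sarcomere list therefore held calls in both directions.

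The cardiac genes Myh6 and Myl7 were highest in SOMD sample 2, while Nkx2-5 was highest in SOMD sample 1+4. Myh6, the cardiac alpha myosin, had 2.23, 31.3 and 0.826 CPM in SOMD samples 1+4, 2 and 3, against 0.145, 0.126 and 0.188 CPM in SOMC, and Myl7, the atrial light chain, had 5.02, 19.7 and 4.43 CPM in SOMD and 2.38, 2.21 and 1.94 CPM in SOMC. The summed level of 7 cardiomyocyte markers was 16.4 to 66.5 CPM over the SOMD samples and 12.9 to 16.4 CPM over the SOMC samples. Of its 4 tested members 2 rose in the paired fit and none passed without pairing. Myl7, Myh6, Myl2 and Tnni3 are also in the sarcomere list, so the calls of these lists are not separate. Nkx2-5, a defining cardiac factor, had 83 counts over SOMD and 2 over SOMC, at 1.5, 1.20 and 0.225 CPM in SOMD and at most 0.0625 CPM in SOMC, while Nppa stayed under 0.3 CPM in all 6 samples. Without SOMD sample 2 the unpaired fit called 2 sarcomere genes higher and 1 lower, though Ttn missed the threshold (2.01, adjusted p = 0.0573, edgeR). The paired fit without number 2 called 12 higher and 3 lower. Without number 1 the paired fit called 8 higher and 1 lower. Myh6, Myl7 and Nkx2-5 were also above every SOMC sample in SOMD samples 1+4 and 3. None of these fits therefore removed every SOMD sample with higher levels of these genes. Whether heart cells were present, and any part of theirs in the sarcomere differences, was not tested.

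Of 9 tested genes of the neuromuscular junction and of excitation none passed, and 4 rose in the paired fit and none fell, with a median log2 fold change of 0.74. These were Atp2a1, the fast calcium pump (1.13 ± 0.20), Ckb, a creatine kinase (0.75 ± 0.12), Ryr1, the calcium release channel (0.59 ± 0.11), and Cdh15, the muscle cadherin (0.55 ± 0.11). The acetylcholine receptor genes Chrna1 and Chrng were too low to test, at 1.71, 0.515 and 0.300 CPM and 1.80, 0.601 and 0.450 CPM in SOMD, against 0.497, 0.126 and 0.375 CPM and 0.290, 0.315 and 0 CPM in SOMC. Mstn, the muscle growth inhibitor, had 66 counts in SOMD, all in sample 1+4, and 1 count in SOMC. Musk, the receptor that organises the junction, had 22 counts in SOMD and 1 in SOMC (ratio 25.6, 95% counting interval 4.13 to 1055).

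**Figure D3:**
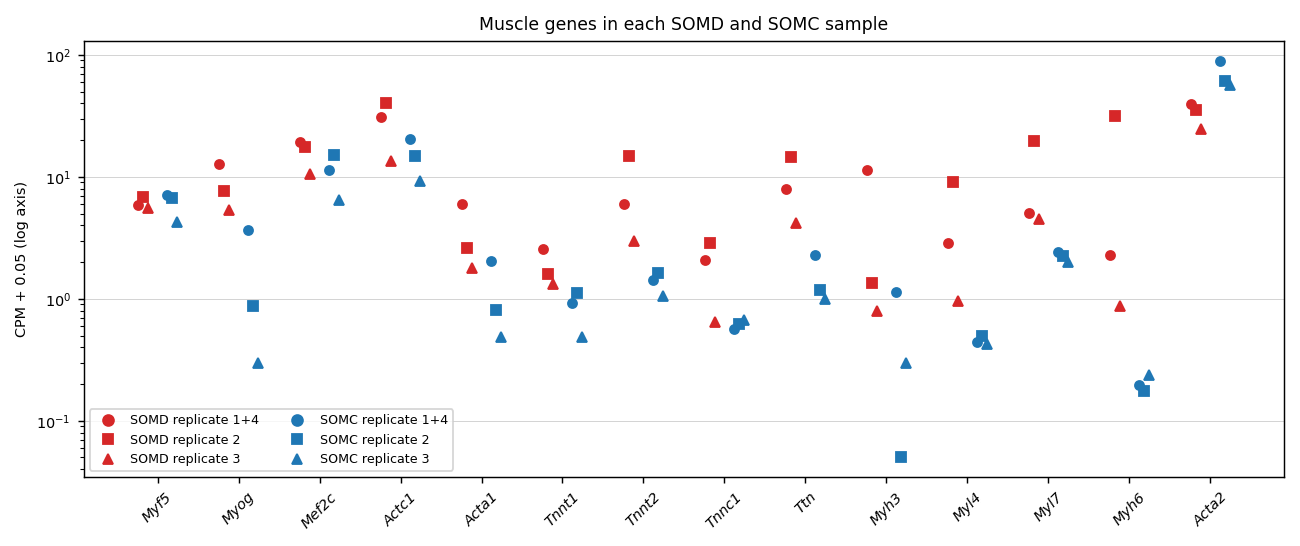
Level of 14 muscle genes in each SOMD (red, left) and SOMC (blue, right) sample, in CPM + 0.05 on a log axis; symbols give the replicate number. Myog lies between 5.25 and 12.7 CPM in SOMD and between 0.25 and 3.64 CPM in SOMC, Myf5 overlaps, Acta2 is lower in SOMD, and SOMD sample 2 stands out for Myh6, Myl7 and Myl4.

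Of 15 tested dermomyotome genes none passed, and in the paired fit 5 rose (Lbx1, En1, Pax7, Met, Eya4) and 2 fell (Dmrt2, Alx4), with a median log2 fold change of -0.13. Lbx1, the factor of muscle precursors that migrate to limb and tongue, had 3.91, 2.40 and 2.85 CPM in SOMD and 0.186, 1.01 and 0.50 CPM in SOMC (paired 2.87 ± 0.43, adjusted p = 0.00155; 0.0631 without pairing, edgeR). Met, the Hgf receptor of these precursors, averaged 14.6 ± 1.60 CPM in SOMD and 9.39 ± 1.38 CPM in SOMC (paired 0.70 ± 0.14, adjusted p = 0.00681, edgeR). Both were higher in every SOMD sample than in any SOMC sample. Pax3 had 25.5, 48.9 and 31.8 CPM in SOMD and 31.3, 59.8 and 31.4 CPM in SOMC, and passed in neither fit (-0.21 ± 0.28).

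Of 10 sclerotome factors none passed, and 2 rose in the paired fit (Nkx3-2 and Tbx18), with a median log2 fold change of 0.14. Pax1 had 69.2, 85.7 and 75.7 CPM in SOMD and 55.2, 67.6 and 65.4 CPM in SOMC (0.29 ± 0.45, adjusted p = 1; 0.333 with pairing, edgeR). Pax9 had 16.1, 9.70 and 10.7 CPM in SOMD and 13.8, 6.62 and 7.0 CPM in SOMC (0.40 ± 0.48, adjusted p = 1; 0.117 with pairing, edgeR). Both were higher in SOMD within each numbered pair without passing either test, which does not show that they were equal. For Pax1 every SOMD sample was above every SOMC sample. The unpaired SE of Pax1 also draws on SOMA and SOMB, where its spread was larger against the mean. Nkx3-2, which carries sclerotome cells toward cartilage, had 11.8, 8.33 and 7.58 CPM in SOMD and 6.98, 5.55 and 5.44 CPM in SOMC (0.64 ± 0.13, adjusted p = 0.00923 with pairing; 0.685 without, edgeR). Sox9, the master regulator of cartilage, averaged 46.7 ± 8.25 CPM in SOMD and 39.7 ± 8.88 CPM in SOMC (0.23 ± 0.31, adjusted p = 1; 0.17 with pairing, edgeR).

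Cartilage and matrix genes divided by member. Of 11 tested cartilage genes none passed without pairing, and with it 2 rose (Col9a1 and Col11a1) and 1 fell (Sox6). Col2a1, the main cartilage collagen, had 283, 294 and 214 CPM in SOMD and 256, 219.5 and 193 CPM in SOMC and passed in neither fit (paired 0.24 ± 0.07, adjusted p = 0.0732, edgeR). Of 25 connective tissue matrix genes none passed, and with pairing 7 rose and 5 fell. Those that rose include the collagen VI chains Col6a1 (0.48 ± 0.11) and Col6a3 (0.90 ± 0.17) and the proteoglycan Vcan, with 675, 691 and 569 CPM in SOMD and 454, 457 and 388 CPM in SOMC (0.57 ± 0.03, adjusted p = 9.61e-07 with pairing; 0.0588 without, edgeR). Those that fell include Postn, a matrix protein of connective tissue, with 55.0, 46.1 and 33.0 CPM in SOMD and 145, 76.4 and 66.8 CPM in SOMC (-1.09 ± 0.13, adjusted p = 0.000271 with pairing; 0.244 without, edgeR), and the proteoglycan Dcn (-0.84 ± 0.20). Col1a1, the main bone and tendon collagen, was lower as well in the paired fit (-0.55 ± 0.13, adjusted p = 0.0164, edgeR). Among 8 tendon genes the matrix protein Tnc rose with pairing (1.01 ± 0.10), Thbs4 fell (-0.68 ± 0.16), and Scx, the tendon regulator, stayed at 1.05 to 1.55 CPM in SOMD and 0.870 to 1.88 CPM in SOMC.

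Signalling genes are given by pathway. None of the lists of this paragraph and the next had a member past the threshold without pairing. With pairing 4.32% of all genes rose and 3.76% fell. Of 11 FGF targets, which report activity of the FGF pathway, 5 rose with pairing (Spry2, Spry4, Dusp6, Etv1, Il17rd) and none fell, with a median log2 fold change of 0.37. Spry4, a feedback inhibitor of the pathway, had 21.1, 5.41 and 12.3 CPM in SOMD and 6.79, 4.73 and 3.75 CPM in SOMC (1.37 ± 0.24, adjusted p = 0.00368, paired fit of edgeR). Most of that difference lay in samples 1+4 and 3. Of 6 Notch targets 3 fell with pairing (Hes1, Hey1, Hey2) and none rose. Hey1, a Notch-driven repressor, had 15.7, 16.6 and 15.0 CPM in SOMD and 19.3, 20.2 and 20.7 CPM in SOMC, and so did not overlap (-0.35 ± 0.08, adjusted p = 0.088; 0.00637 with pairing, edgeR).

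Of 8 Hedgehog targets 3 fell with pairing and none rose. Ptch1, the Hedgehog receptor and target, had 139.9, 233 and 162 CPM in SOMD and 197, 253 and 174 CPM in SOMC (-0.25 ± 0.07, adjusted p = 0.038 with pairing; 1 without, edgeR), while the effector and target Gli1 passed in neither fit (-0.12 ± 0.28). Of 11 BMP targets the inhibitors Smad6 (-0.27 ± 0.07) and Smad7 (-0.33 ± 0.08) fell with pairing, and of 19 ligands and antagonists of this family 4 rose (Bmp7, Gdf6, Tgfb2, Grem1) and 1 fell (Bmp4, -0.47 ± 0.06). Of 13 Wnt targets 2 rose (Wif1 and Apcdd1) and 2 fell (Notum and Sp5). Among 15 retinoic acid genes 3 rose and none fell: Cyp26b1, which breaks retinoic acid down, by 1.65 ± 0.21, Aldh1a2, which makes it, by 0.53 ± 0.15, and Crabp2, which carries it, by 0.24 ± 0.06. Cyp26b1 had 12.9, 10.4 and 6.83 CPM in SOMD and 2.88, 5.23 and 2.38 CPM in SOMC (adjusted p = 0.000327 with pairing; 0.0675 without, edgeR).

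No gene of the list for presomitic mesoderm and tail bud (23 tested) passed without pairing, and with it 1 rose (Dkk1) and 4 fell (Cdx2, Evx1, Dll1, Ripply1). Dll1, the Notch ligand whose lineage was sorted, had 8.94, 14.8 and 13.7 CPM in SOMD and 17.9, 21.8 and 18.6 CPM in SOMC (-0.73 ± 0.17, adjusted p = 0.0166 with pairing; 0.38 without, edgeR). Cdx2, a tail bud factor, had 0.0682, 0.343 and 0.375 CPM in SOMD and 1.62, 0.631 and 1.69 CPM in SOMC (-2.98 ± 0.71, adjusted p = 0.0206 with pairing; 0.217 without, edgeR). Both genes were lower in every SOMD sample than in any SOMC sample.

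Genes of cell growth and metabolism come next. Of 22 genes of cholesterol synthesis none passed, and 12 rose with pairing and none fell, with a median log2 fold change of 0.26. Over all genes 4.32% rose and 3.76% fell with pairing. Hmgcs1, an early enzyme of the pathway, had 230.1, 212 and 176 CPM in SOMD and 153, 171 and 146 CPM in SOMC (0.40 ± 0.07, adjusted p = 0.00242 with pairing; 0.199 without, edgeR). The other 11 changed by 0.14 to 0.43 on the log2 scale. Of 30 genes of DNA replication and mitosis 2 rose with pairing, a share not far from that of all genes. Of 17 glycolysis genes none passed without pairing, and with it 3 fell, all of them membrane carriers: the glucose transporters Slc2a1 (-0.59 ± 0.06) and Slc2a3 (-0.91 ± 0.12) and the lactate transporter Slc16a3 (-0.24). Lin28a, a heterochronic RNA-binding protein, had 273, 383 and 403 CPM in SOMD and 328, 423 and 399 CPM in SOMC and passed in neither fit (-0.12 ± 0.15).

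Markers of other cell types complete the lists, beside the epithelial and cardiac ones given above. Summed over each list, 10 erythroid genes ran from 7.12 to 73.3 CPM in SOMD and from 8.83 to 82.6 CPM in SOMC, with Hba-a1 and Hba-a2 at 0 in all 6 samples; 13 endothelial genes ran from 151 to 360 CPM in SOMD and from 141 to 347 CPM in SOMC. None of the erythroid, endothelial, endoderm or notochord genes tested passed in either fit. The neural tube list had 1 member higher and 2 lower of 14 with pairing, and the neural crest list 1 higher of 9. Over all genes 4.32% rose and 3.76% fell with pairing. The 8 macrophage genes summed to 0.601 to 0.750 CPM in SOMD and 0.375 to 1.04 CPM in SOMC, too low to test.

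**Figure D4:**
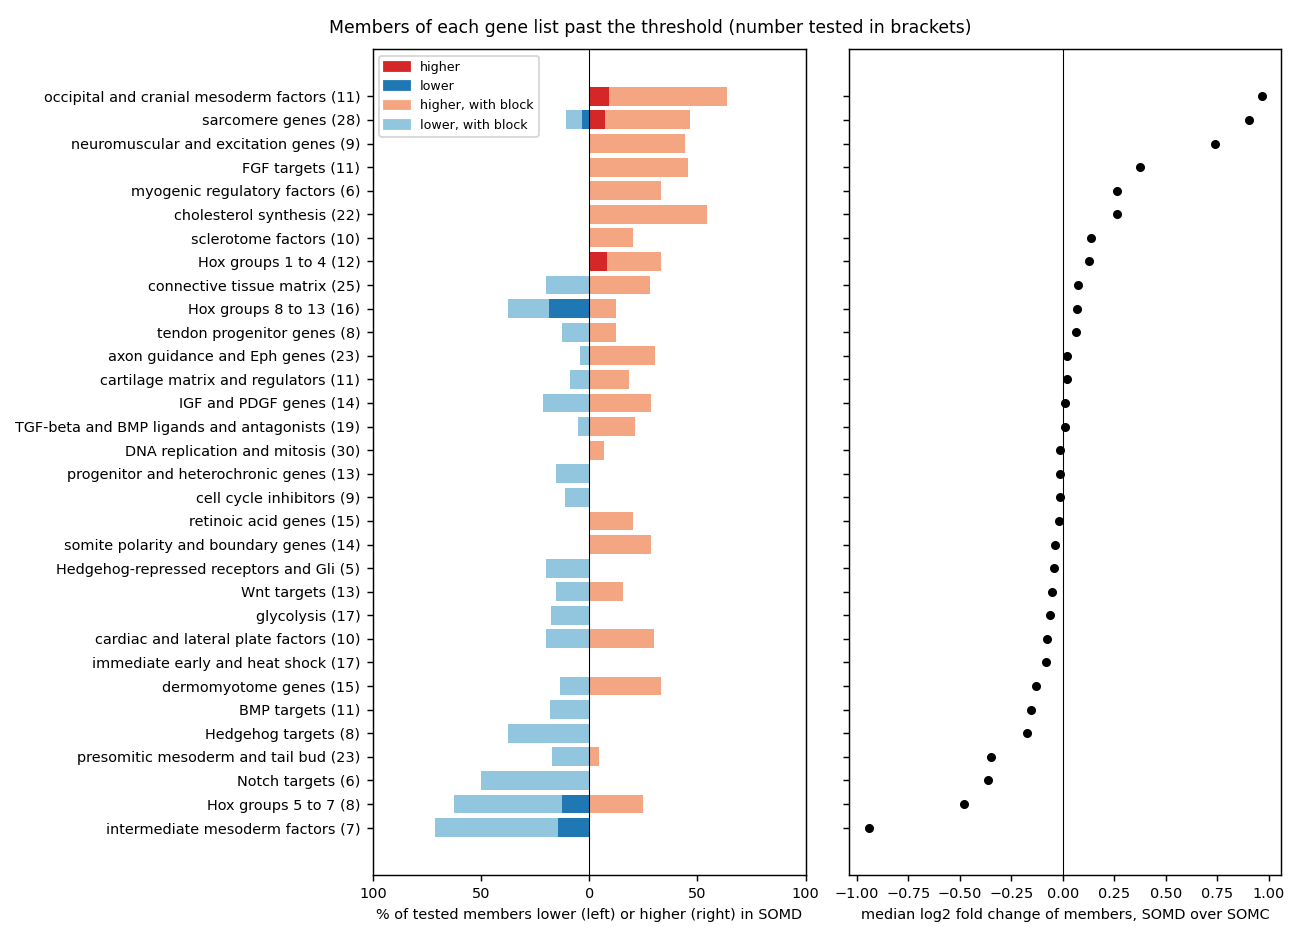
Left, share of the tested members of each gene list that were lower (blue, to the left) or higher (red, to the right) in SOMD than in SOMC, in percent; dark bars are the unpaired fit and light bars reach the share in the paired fit, in brackets the number tested. Right, median log2 fold change of the members, SOMD over SOMC, which runs from -0.94 for intermediate mesoderm factors to 0.97 for occipital and cranial mesoderm factors.

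The step between the oldest levels was then set against the step between the youngest, as the difference of log2 fold changes (SOMD over SOMC) minus (SOMB over SOMA), which share no sample. This difference passed for 276 genes upward (2.01%) and 291 downward (2.12%), or 4.14% in either direction, in edgeR. It contains the SOMD over SOMC fold change by which many of the genes below were chosen. Barx1 had a log2 fold change of 5.04 at the older step and -2.44 at the younger, a difference of 7.48 ± 0.63 (adjusted p = 5.97e-05, edgeR). It averaged 0.204 ± 0.076 CPM in SOMB and 1.22 ± 0.43 CPM in SOMA, so the high level was found in SOMD alone among these 4 groups. Hoxa4 likewise had 1.07 at the older step and -0.58 at the younger (difference 1.64 ± 0.23, adjusted p = 0.00167, edgeR).

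Pitx1 averaged 79.5 ± 22.7 CPM in SOMB and 113 ± 17.0 CPM in SOMA, and its log2 fold change of -4.13 at the older step stood against -0.51 at the younger (difference -3.62 ± 0.61, adjusted p = 0.00481, edgeR). Hoxc9, Hoxc8 and Hoxb9 had log2 fold changes of -2.77, -2.10 and -1.44 at the older step and 0.15, 0.47 and 0.93 at the younger, with differences of -2.93 ± 0.49, -2.57 ± 0.38 and -2.37 ± 0.34. Gpr50 and Krt19 had -1.37 and -1.36 at the older step and 2.17 and 0.97 at the younger (differences -3.54 ± 0.30 and -2.33 ± 0.19). By contrast, the difference was not past the threshold for Naaa (0.03 ± 0.24), Asb4 (-0.18 ± 0.32) and Angptl1 (-0.47 ± 0.47), whose fold changes had the same sign at both steps.

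Several sclerotome and early muscle genes had the larger difference at the younger step. Pax1, with 60.3 ± 32 CPM in SOMB and 2.24 ± 2.8 CPM in SOMA, had a log2 fold change of 0.29 at the older step and 4.52 at the younger (difference -4.23 ± 0.71, adjusted p = 0.00475, edgeR). Nkx3-2 (-1.96 ± 0.49), Sox9 (-1.74 ± 0.44) and Col2a1 (-0.82 ± 0.20) also differed between the steps. Myf5 had 0.00 at the older step and 3.12 at the younger (difference -3.11 ± 0.58, adjusted p = 0.00853, edgeR). Myog was at 0 in every SOMA sample and at most 0.176 CPM in SOMB, below the SOMD and SOMC levels given above. Hey1 was lower at both steps, at -0.35 for the older and -0.99 for the younger (difference 0.64 ± 0.11, adjusted p = 0.00416, edgeR).

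**Figure D5:**
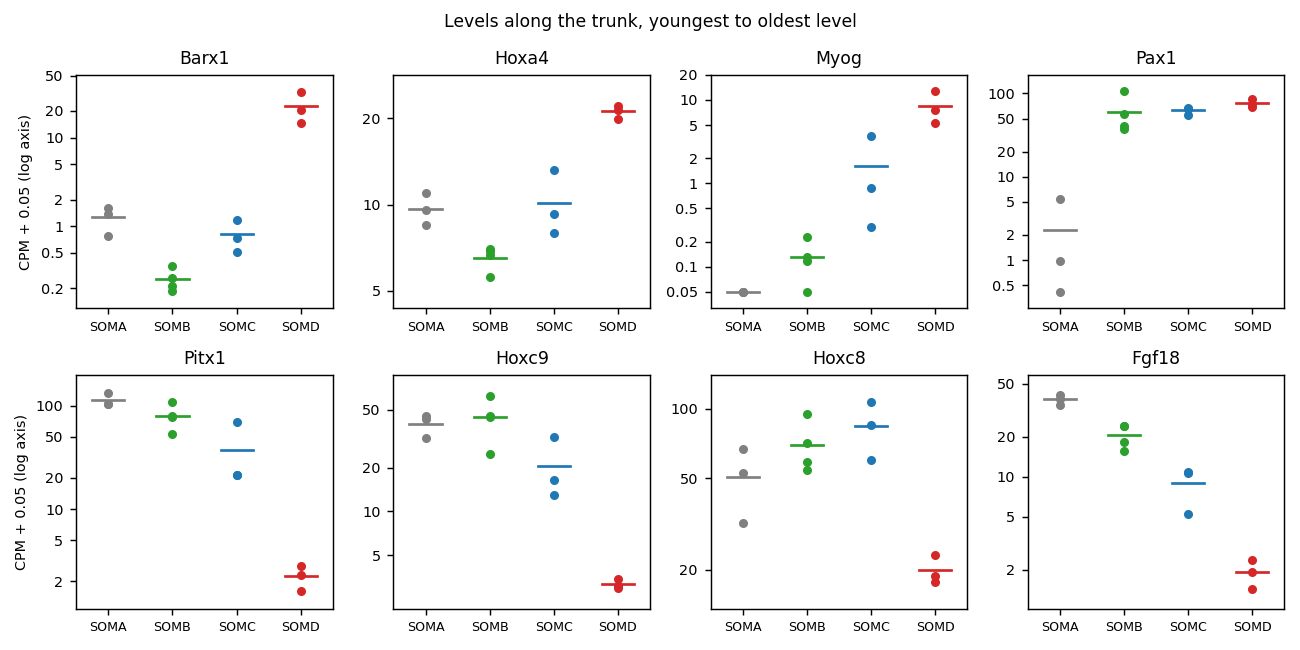
Level of 8 genes in CPM + 0.05 (log axis) along the trunk from the youngest (SOMA, n = 3) through SOMB (n = 4) and SOMC (n = 3) to the oldest level (SOMD, n = 3); points are samples and bars group means. Barx1 and Hoxa4 are highest in SOMD, Pax1 is lowest in SOMA at 2.24 CPM on average and between 60.3 and 76.9 CPM in the other group means, and Pitx1, Hoxc9, Hoxc8 and Fgf18 are lowest in SOMD.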

How the data were processed

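RNA of sorted cells was sequenced from libraries made, per the labels' protocols, with Trizol and the TruSeq RNA kit V2 (11 rounds of PCR), which does not mark the strand. The authors deposited whole-number counts of reads per gene for each sample. The genome mm10 and the tools DESeq2 1.10, HTSeq 0.6, TopHat2 2.0.9 and Cufflinks are named, per the submitters' processing notes; annotation and strand setting: not given in the sources used here. A count table has 23337 genes, and its 5 HTSeq summary lines were left out of totals and tests.

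The gene lists, genes and tests were chosen with earlier results of these data known. The SOM samples were fitted together in edgeR 4.0.16 (R 4.3.3) after summing the 2 nearly identical pairs, with filterByExpr (minimum count 10, minimum total 15), TMM scaling, prior count 0.125 and quasi-likelihood F tests, with Benjamini-Hochberg adjustment across the 13711 tested genes and a threshold of 0.05. The summed pairs leave 3 SOMD, 3 SOMC, 4 SOMB and 3 SOMA samples, with 9 residual degrees of freedom (4 with the block). The common biological coefficient of variation was 0.135 without and 0.0482 with the block. The pairing comes from the data, through same-number correlations over 0.1 (0.549 to 0.610 for SOMD with SOMC, and 0.509 to 0.574 for SOMB with SOMA over their 3 shared numbers), and the labels do not state it; the block was set within SOMC with SOMD and within SOMA with SOMB. Genes were named by rule: up to 12 higher and 12 lower called genes with the largest fold change, a mean of at least 5 CPM and no overlap between groups, called list members, and fixed anchor genes; others named from lists or the paired fit were chosen after their values were seen. CPM values were computed here from the counts. List symbols were matched to the files directly or by RefSeq synonyms, and Hbb-bt was not matched. Coordinates are from GENCODE M21, and promoter letters from RefSeq, matched for all 15 muscle genes. Some tested members of the lists are not reported here. The fit without the block was tested on simulated data of independent samples with a common spread. That test does not cover the paired fit. Alternatives were other scalings, no filter, other uses of the pairs, only SOMC and SOMD, the block, DESeq2 1.42.0 and each sample left out; the block without each number was added after seeing the data. Figures were drawn with matplotlib 3.10.9.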

Additional observations from a re-analysis of the deposited data

Results flagged for a closer look

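For 19 of the genes named by rule the step from SOMC to SOMD differed from the step from SOMA to SOMB by a test of the difference itself (edgeR, adjusted p between 5.97e-05 and 0.0445, and between 2.4e-08 and 0.00152 with the block). Values are log2 fold changes of SOMD over SOMC minus those of SOMB over SOMA. Many of these genes were named by the SOMD over SOMC fold change, which is part of the difference tested. Their number is therefore no separate support. Of all genes tested 4.14% passed in either direction without the block.

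The difference was positive for Barx1 (7.48), Hoxa4 (1.64), Bmpr1b (1.14) and Hey1 (0.64). Of these, Hey1 had the same sign at both steps, with the larger fold change between SOMB and SOMA, and Bmpr1b had 1.23 at the older step and 0.08 at the younger.

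Among genes lower in SOMD the difference was negative for Pitx1 (-3.62), Gpr50 (-3.54), Hoxc9 (-2.93), Hoxc8 (-2.57), 2610528A11Rik (-2.47), Hoxb9 (-2.37), Krt19 (-2.33), Gata3 (-1.62), Acta2 (-1.46) and Mfap3l (-0.97). Hoxc9, Hoxc8, Hoxb9, Gpr50, Krt19 and Acta2 had fold changes of opposite sign at the steps.

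Among sclerotome, cartilage and early muscle genes the difference was negative for Pax1 (-4.23), Myf5 (-3.11), Nkx3-2 (-1.96), Sox9 (-1.74) and Col2a1 (-0.82), whose fold changes were 0.29, 0.00, 0.63, 0.23 and 0.24 between SOMD and SOMC, against 4.52, 3.12, 2.59, 1.97 and 1.06 between SOMB and SOMA.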

How the results depend on the processing

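The 51 genes called between SOMD and SOMC kept their sign in every alternative run. Since their groups do not overlap, leaving out a sample could not turn that sign. Counts of genes higher and lower were 20 and 31. They were 593 and 515 with the replicate block, 1009 and 956 with the block and libraries as deposited, and 697 and 668 with the block and only SOMC and SOMD. Without the block, libraries as deposited gave 174 and 148, DESeq2 85 and 97, no filter 40 higher, only SOMC and SOMD 8 and 14, and the library numbered 1 alone of each pair 9 higher. Leaving out 1 sample gave 1 to 36 higher and 1 to 35 lower, and leaving out 1 number with the block gave 169 to 493 higher and 166 to 470 lower (331 and 303 without number 3). Of the 1108 paired calls 319, 806 and 592 were also called without number 1, 2 or 3. For the difference between steps the counts of 276 higher and 291 lower became 1079 and 1295 with the block, 437 and 465 with libraries as deposited, and 1427 and 1634 with both; leaving out 1 sample gave 147 to 234 higher and 161 to 286 lower, and with the block 663 to 917 and 863 to 1133 (886 and 1082 without number 3). Fits without the identical pair summed count 1 sample as 2. The cause was not tested in the other cases. Counts of calls by RLE size factors (20 and 32) and without scaling (18 and 29) were close to the main ones. Levels under about 1 CPM rest on few counts, so absence of a difference there was not detectable at this depth.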

Other observations

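Genes of axon guidance and of insulin-like growth factors were not described above. Of 23 axon guidance and Eph genes none passed without the block, and with it 7 rose in SOMD and 1 fell, against 4.32% and 3.76% of all genes. Sema3d, a secreted guidance cue, had 34.9, 25.6 and 22.1 CPM in SOMD and 17.5, 13.2 and 11.2 CPM in SOMC (0.98 ± 0.10, adjusted p = 8.22e-05 with the block and 0.189 without, edgeR). Efnb2, an ephrin ligand of the posterior part of somites, had 121, 108 and 94.1 CPM in SOMD and 56.6, 83.6 and 58.4 CPM in SOMC (0.75 ± 0.14, adjusted p = 0.00448 with the block and 0.368 without, edgeR). Both genes were higher in every SOMD sample than in any SOMC sample. Of 14 genes of the IGF and PDGF families 4 rose with the block, Igf1 and Pdgfra among them, and 3 fell, and none passed without it.

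Some genes differed strongly between samples of 1 group and were chosen after their values were seen. Tfap2c, a transcription factor of ectoderm and germ cells, had 24.2, 4.21 and 10.7 CPM in SOMD and 1.88, 0.504 and 0.875 CPM in SOMC, and C130021I20Rik had 83.5, 16.7 and 34.5 CPM in SOMD and 8.20, 4.22 and 3.88 CPM in SOMC. In both, as for Lhx9, Lhx2 and Tbx15, the SOMD samples ran from 1+4 as the highest over 3 to 2 as the lowest. Ret, a receptor of the nephric duct and neural crest, had 3.82, 8.67 and 10.3 CPM in SOMD and 14.8, 20.4 and 23.3 CPM in SOMC (-1.51 ± 0.16, adjusted p = 9.71e-05 with the block and 0.199 without, edgeR).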
